A study of Schizosaccharomyces pombe with 6 samples.

Results

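The meu and mug genes of fission yeast (*Schizosaccharomyces pombe*) were named for transcripts that increase in meiosis, meu standing for meiotic expression upregulated and mug for meiotically upregulated gene. They were taken here as every probe set paired in the annotation with exactly 1 *S. pombe* gene whose current symbol is meu or mug followed by a number. This gave 109 genes, 18 meu and 91 mug, of 2917 probe sets paired with exactly 1 gene. Each of the 109 genes had 1 probe set, and all 109 were among the 4965 probe sets tested. The symbol alone decides which genes belong to the set, and no measured value enters this rule. RefSeq lists 115 such symbols, and the other 6 have no probe set of their own in the annotation used and were not analysed here.

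The study asked how growing cells respond to hydrogen sulfide (H2S), which sodium hydrogen sulfide (NaHS) releases in water. Wild-type 972 h- cells, a haploid strain of a single mating type, were grown in liquid medium to an OD600 of 0.5. The groups were 3 cultures given 50 µM NaHS for 30 min at 30°C and 3 untreated cultures, and no other agent or allele is named for either group. RNA of each culture was hybridised to its own Affymetrix Yeast Genome 2.0 array, and the values are log2 signals of whole cultures, on which a difference of 1 is a 2-fold change.

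In fission yeast, loss of nitrogen leads h- and h+ cells to mate, and the diploid then goes through meiosis and forms spores. The transcription factor Ste11 starts this programme, the RNA-binding protein Mei2 is needed for entry into meiosis, and the factor Mei4 drives many genes of the middle phase. In growing cells the protein Mmi1 binds a set of meiotic transcripts and sends them to degradation, so that meiotic genes are kept low at the level of transcription and of RNA stability. The name meu or mug says only how a gene was found, and the products range from spore wall proteins and recombination factors to permeases, enzymes and proteins of no known function.

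Most of the 109 genes gave a signal above background in untreated growing cells, often a weak one. Background was read from the 2601 probe sets for *S. cerevisiae* genes, which no RNA on these arrays should match. The 99th percentile of their mean log2 signals was 3.57 over the NaHS arrays and 3.78 over the untreated arrays. Of the 109 genes, 98 lay above the limit of 3.78 in untreated cells and 11 did not (10.1%), against 29 of the 2808 other probe sets paired with 1 gene (1.03%). The median mean log2 signal in untreated cells was 6.56 for the meu and mug genes (quartiles 4.87 and 8.52) and 9.65 for the other genes (quartiles 8.65 and 10.83). Another 40 meu and mug genes (36.7%) lay between background and 6, where 3.77% of the other genes lay, 26 lay between 6 and 8, and 32 (29.4%) were over 8, against 85.8% of the other genes. Probe sets differ in how strongly they bind, so these values place a probe set relative to background and do not rank transcripts against each other. In RNA of whole cultures, few cells with much transcript and many cells with little cannot be told apart.

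**Figure D1:**
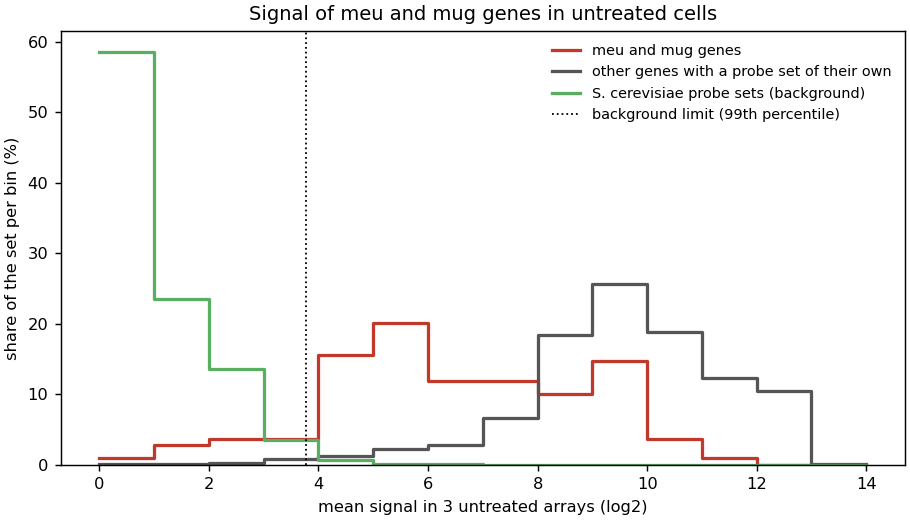
Share of probe sets (%, vertical axis) by mean log2 signal over the 3 untreated arrays (horizontal axis, bins of 1) for the 109 meu and mug genes, the 2808 other genes with a probe set of their own and the 2601 *S. cerevisiae* probe sets, with the background limit of 3.78 dotted. The meu and mug genes spread from background to over 11, with 29.4% of them over 8, while the other genes gather over 8.

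The highest signal in the set was that of mug64, at 11.85, 11.85 and 11.94 in NaHS cells and 11.87, 11.81 and 11.88 in untreated cells (log2 fold change 0.03 with a standard error, SE, of 0.07). The lowest mean in untreated cells was that of mug93, which read 1.97, 1.41 and 0.54 in NaHS cells and 1.93, 0.86 and blank in untreated cells. Both genes were picked here as the ends of the range after their values were seen. The median over the 109 genes was 6.67, 6.36 and 6.16 in the NaHS arrays and 6.67, 6.45 and 6.41 in the untreated arrays, while the median of all tested probe sets stayed between 9.49 and 9.58 in the 6 arrays.

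Markers of the cell states that the cultures could hold were read beside these levels. Of 5 genes that mark starved, mating or meiotic cells, fus1, ste11, mei2 and mei4 were above background in untreated cells and mei3 was not, being blank or at 0 in NaHS replicate 1 and untreated replicate 2. The 5 sporulation markers were all above background, though isp3 was close to it, with a mean of 4.02. Their summed linear signal was 1410 to 1690 in NaHS cells and 1300 to 1670 in untreated cells, and that of the starved, mating and meiotic markers was 726 to 878 in NaHS cells and 786 to 849 in untreated cells. Of the h- markers 4 of 5 were above background, the pheromone gene mfm1 being at background, but so were all 3 h+ markers, map1, map2 and map3. The h+ sum was 191 to 249 in NaHS cells and 239 to 269 in untreated cells, and the h- sum was 2060 to 3300 in NaHS cells and 1520 to 2550 in untreated cells. Such sums follow their brightest gene. This was mfm2 in the h- list (log2 fold change 0.33, adjusted p = 0.73) and ste11 in the starved, mating and meiotic list (-0.11, adjusted p = 0.724). Within these marker lists mam1 of the h- list rose (log2 fold change 0.75, adjusted p = 0.0132), mei2 of the starved, mating and meiotic list rose (0.61, adjusted p = 0.00849) and spo6 of the sporulation list fell (-0.44, adjusted p = 0.0489). Markers of growing cells (cdc2, cdc13, act1 and nda3) summed to 13322 to 15344 in NaHS cells and 13507 to 14635 in untreated cells. Their part in the changes below was not tested.

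In the main comparison a minority of the meu and mug genes was called, in both directions and at shares near those of all tested probe sets. A gene that was not called is not thereby shown to be unchanged. NaHS and untreated arrays were compared with limma, and all adjusted p-values are Benjamini-Hochberg values over the 4965 probe sets tested, with a call at an adjusted p below 0.05. Replicate 1 of both groups stood apart from replicates 2 and 3 in part of the genes. The counts are given with it and, further on, without it and with the replicate number as a block. Of the 109 genes 11 were called (10.1%), while 7.63% of all tested probe sets were. Of the 109, 6 rose (5.5%), against 3.97% of all tested probe sets, and 5 fell (4.59%), against 3.67%. Of the 18 meu genes 1 rose (5.56%), meu10, and 0 fell. Of the 91 mug genes 5 rose (5.49%) and 5 fell (5.49%). With meu10 counted at its lower bound, given below, folds over 2 were reached by 3 of the rises and 1 of the falls, and folds over 1.5 by 4 of the rises and 4 of the falls. The median log2 fold change was 0.011 over the 109 genes and 0.009 over all tested probe sets, so that the middle of the set lay where that of all probe sets lay. Its spread was a little wider, with quartiles of -0.17 and 0.22 against -0.13 and 0.14 for all tested probe sets. A change of less than 0.2 on the log2 scale was seen for 57 of the 109 genes (52.3%) and for 63.8% of all tested probe sets.

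The calls came from every band of signal. Of the 11 genes not above background in untreated cells 1 rose, of the 40 between background and 6 there were 1 that rose and 2 that fell, of the 26 between 6 and 8 there were 3 and 2, and of the 32 over 8 there were 1 and 1. Among the other genes with a probe set of their own, 2 of 29 were called in the lowest band, 7 of 106 between background and 6, 15 of 265 between 6 and 8 and 151 of 2408 over 8, and the difference between the sets was not tested. The median SE of the log2 fold change of the meu and mug genes was 0.38, 0.20, 0.17 and 0.09 in these bands from low to high, so that a change of a given size was harder to call among the weak probe sets.

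The largest change of the set was the rise of mug14 (SPBC359.06), which encodes an adducin-like protein. Its log2 signal was 8.41, 8.84 and 8.90 in NaHS cells and 5.90, 6.28 and 6.32 in untreated cells. Every NaHS array was above every untreated array by over 2 on the log2 scale. Treated cells had 5.86 times the untreated signal, a log2 fold change of 2.55 (SE 0.18, adjusted p = 0.00119). The differences within the replicate numbers were 2.51, 2.56 and 2.58, so that 3 of 3 gave nearly the same size.

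Next came mug146 (SPCC1235.12C), with 6.32, 6.88 and 6.47 in NaHS cells and 5.13, 4.90 and 5.09 in untreated cells. The groups were well apart, and the gene was 2.86-fold higher (log2 fold change 1.52, SE 0.16, adjusted p = 0.00555). The uncharacterised gene mug35 (SPAC22H12.01C), a sequence orphan, was already bright in untreated cells. It had 10.011, 10.272 and 9.998 in NaHS cells, against 8.439, 8.941 and 8.845 in untreated cells, and was 2.55-fold higher (log2 fold change 1.35, SE 0.16, adjusted p = 0.00747). The lowest NaHS value of mug35 was more than 1 above its highest untreated value.

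A smaller but very even rise was that of mug135 (SPCC330.04C), a gene of the DUF1773 family of proteins of unknown function. It had 8.38, 8.48 and 8.36 in NaHS cells, against 7.55, 7.71 and 7.52 in untreated cells, with means of 8.41 ± 0.06 in NaHS cells and 7.59 ± 0.10 in untreated cells (SD, n = 3 each). The log2 fold change was 0.81 (SE 0.08, adjusted p = 0.00507). The rises of mug14, mug146, mug35 and mug135 passed the test in each of the 6 fits that left out 1 array, the highest adjusted p being 0.0396, for mug35.

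Both other rises lay close to the threshold. The gene meu10 (SPCC1223.12C) encodes a GPI-anchored protein of the spore wall and is the 1 called gene described here with a role in spore formation. Its log2 signal was 4.49, 4.60 and 3.75 in NaHS cells and 3.12, 2.29 and 3.05 in untreated cells, and the untreated arrays were not above background. The rise was therefore given as at least 1.42-fold, the NaHS mean against the background limit, with an adjusted p of 0.0463 for the measured log2 fold change of 1.46. In NaHS cells 2 of 3 arrays were above the 99th percentile of their own *S. cerevisiae* probe sets. The gene mug124 (SPBC19C2.06C) had 7.93, 8.11 and 8.11 in NaHS cells and 7.37, 7.72 and 7.50 in untreated cells, a log2 fold change of 0.52 (SE 0.11, adjusted p = 0.0484). Neither gene passed in any fit without 1 array, where adjusted p was 0.0554 to 0.152 for meu10 and 0.071 to 0.182 for mug124.

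Among the 5 called decreases mug2 (SPBC106.08C) was the largest and the only one over 2-fold. It belongs to the DUF1773 family, as mug135 does, and moved the other way. Its log2 signal was 5.61, 6.31 and 5.98 in NaHS cells and 6.69, 7.16 and 7.14 in untreated cells, with the highest NaHS value below the lowest untreated one. The log2 fold change was -1.03 (SE 0.22, adjusted p = 0.0446), and the differences within the replicate numbers were -1.07, -0.85 and -1.15.

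The sequence orphan mug150 (SPCC1322.07C) had 5.82, 6.38 and 6.12 in NaHS cells and 6.77, 6.97 and 7.02 in untreated cells, a log2 fold change of -0.81 (SE 0.16, adjusted p = 0.0348). Another sequence orphan, mug177 (SPAC630.15), had 3.76, 4.22 and 3.76 in NaHS cells and 4.53, 4.77 and 4.52 in untreated cells, a log2 fold change of -0.69 (SE 0.15, adjusted p = 0.0499). Its mean in NaHS cells was above background, but 1 of the 3 NaHS arrays alone exceeded the 99th percentile of its own *S. cerevisiae* probe sets, so the signal left after NaHS was close to the background limit.

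The gene mug5 (SPAC14C4.08) had 4.95, 4.72 and 4.70 in NaHS cells and 5.60, 5.27 and 5.49 in untreated cells, a log2 fold change of -0.66 (SE 0.12, adjusted p = 0.0288). The most even decrease was that of mug56 (SPAC26H5.11). It had 9.83, 9.76 and 9.73 in NaHS cells and 10.29, 10.40 and 10.29 in untreated cells, a log2 fold change of -0.55 (SE 0.07, adjusted p = 0.0101).

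The calls of all 5 decreases were sensitive to leaving out 1 array, though each gene stayed lower in every such fit. In these fits the calls over all tested probe sets also fell, from 379 to between 95 and 224. The call of mug56 was kept in 3 of the 6 fits that left out 1 array and lost without NaHS replicate 2, untreated replicate 2 or untreated replicate 3 (adjusted p = 0.0529, 0.0697 and 0.0622). The calls of mug2, mug5, mug150 and mug177 were each kept in 1 of 6, without untreated replicate 1 for mug2, NaHS replicate 1 for mug5, and NaHS replicate 2 for mug150 and mug177. Their highest adjusted p was 0.169, 0.129, 0.146 and 0.181. With quantile normalization 8 of the 109 genes rose and 2 fell, in place of 6 and 5, and mug2, mug150 and mug177 then missed the threshold (adjusted p = 0.117, 0.111 and 0.0824), as mug124 did (0.138).

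**Figure D2:**
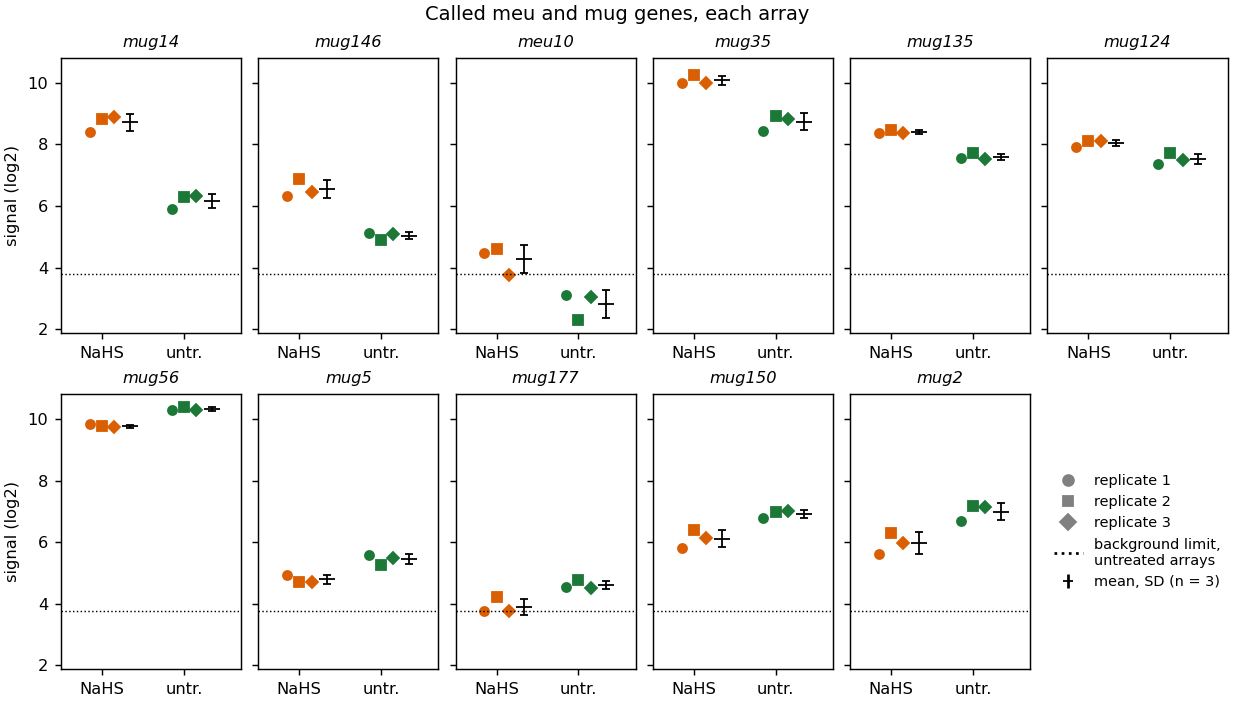
Log2 signal (vertical axis) of the 11 called meu and mug genes in each of 3 NaHS arrays (orange, left) and 3 untreated arrays (green, right), with the mean and SD of each group in black and the background limit of 3.78 dotted. The upper row holds the 6 genes that rose, from mug14 to mug124, and the lower row the 5 that fell, and the groups of each gene do not overlap.

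A further 22 genes separated the groups completely without being called. In 20 of the 109 genes (18.3%) the lowest NaHS value exceeded the highest untreated value, against 14.6% of all tested probe sets, and in 13 (11.9%) the highest NaHS value was under the lowest untreated value, against 13.7%. The 11 called genes are among these 33. Of the 14 uncalled genes on the higher side mug27 and mug114 were at background in both groups, and the other 12 had log2 fold changes of 0.14 to 0.69, while the 8 on the lower side were 0.10 to 1.22 lower. Over all 98 uncalled genes the SE ranged between 0.07 and 0.98 with a median of 0.17.

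The largest of these differences of means was in mug153, a sequence orphan, with 3.36, 4.41 and 4.40 in NaHS cells and 4.93, 5.37 and 5.51 in untreated cells (log2 fold change -1.22, SE 0.32, adjusted p = 0.0836). NaHS replicate 1 was the lowest of the 6 arrays, and the difference was larger there than in the others. On the higher side the sequence orphan meu31 had 5.96, 6.02 and 5.97 in NaHS cells and 5.05, 5.64 and 5.18 in untreated cells (log2 fold change 0.69, SE 0.16, adjusted p = 0.0549). The amino acid permease gene meu22 had 4.98, 4.53 and 4.74 in NaHS cells and 4.30, 4.15 and 4.04 in untreated cells (log2 fold change 0.59, SE 0.14, adjusted p = 0.0587). Both genes just missed the threshold, as did mug133, of the UPF0300 family, with 5.66, 5.60 and 5.37 in NaHS cells and 5.13, 4.96 and 4.67 in untreated cells (adjusted p = 0.06).

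The sample titles give each NaHS array the experiment number of an untreated array, but do not say whether the cultures shared an origin. The replicate number may therefore pair cultures, and a fit with it as a block called more genes. It called 17 of the 109 as higher (15.6%), against 16.3% of all tested probe sets, and 15 as lower (13.8%), against 16.4%, and these 32 included all 11 genes called without the block. Of the 11 genes called higher in that fit alone mug27 was at background in both groups. The other 10 had log2 fold changes of 0.19 to 0.69 and included meu18, meu22, meu31, mug68, mug108 and mug133, with block adjusted p = 0.00536, 0.00907, 0.0158, 0.0307, 0.0198 and 0.00403. The 10 called lower in it alone were 0.17 to 1.22 lower and included mug153 (0.0057) and mug58 (0.00831). For meu18 the arrays read 9.37, 9.69 and 9.48 in NaHS cells and 8.81, 9.15 and 9.07 in untreated cells, and the log2 fold change was 0.50 (SE 0.13), whose adjusted p was 0.0751 without the block.

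**Figure D3:**
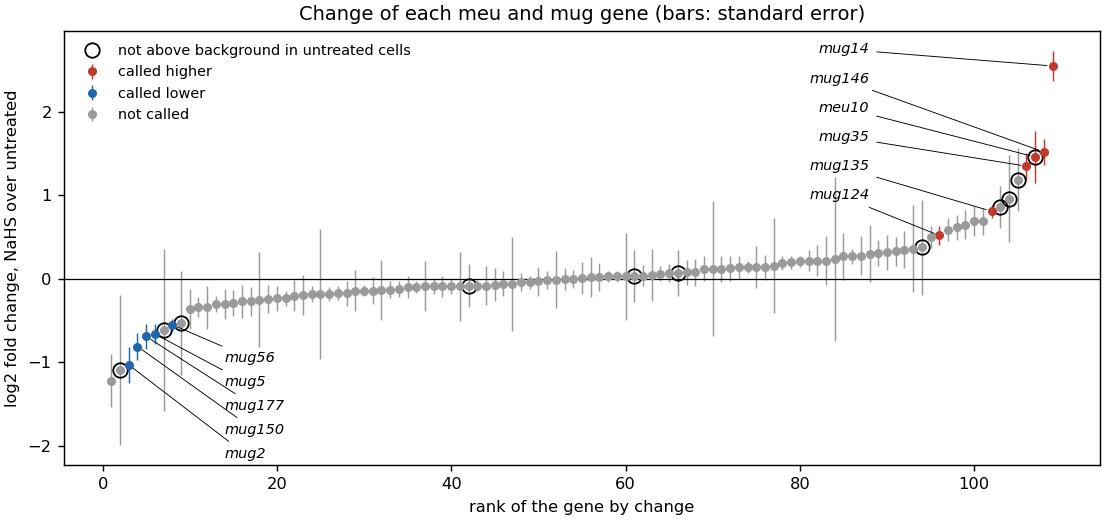
Log2 fold change of NaHS over untreated cells (vertical axis) for the 109 meu and mug genes in rank order (horizontal axis), with limma's SE as bars. The 6 genes that rose are in red, the 5 that fell in blue and the 98 not called in grey, and rings mark the 11 genes not above background in untreated cells; the curve is flat near 0 over most of its length and mug14 stands clear of it at 2.55.

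Of the genes with known parts in sporulation or meiotic chromosome biology, meu13, meu14, mug20 and mug24 were not called. For meu14, whose protein lines the leading edge of the forespore membrane, the arrays read 5.877, 5.980 and 5.999 in NaHS cells and 5.556, 5.977 and 5.666 in untreated cells (log2 fold change 0.22, SE 0.12). For meu13, a Hop2 homologue of meiotic recombination, they read 4.74, 4.37 and 4.27 in NaHS cells and 4.60, 3.96 and 5.10 in untreated cells (-0.09, SE 0.30). The groups of both genes overlapped. For mug20, a component of the linear elements on meiotic chromosomes, the log2 fold change was 0.30 with an SE of 0.34, and for the RNA-binding protein gene mug24 it was 0.16 with an SE of 0.57. With the block the SE was 0.17 for mug20 and 0.14 for mug24, and neither was called (adjusted p = 0.246 and 0.444).

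Of the genes for enzymes, transport and protein turnover, meu7, meu17, mug30, mug33, mug86 and mug105 were also not called without the block. The log2 fold change was -0.23 (SE 0.15) for meu7, an alpha-amylase homologue, and -0.36 (0.24) for meu17, a predicted glucan glucosidase. It was -0.17 (0.15) for mug86, a predicted acetate transporter, and -0.27 (0.20) for mug33, a membrane protein of exocytosis. Of these 4, meu7, mug86 and mug33 were called lower with the block (adjusted p = 0.0462, 0.0495 and 0.0148). For mug105, which encodes a deubiquitinating enzyme, the arrays read 9.42, 9.67 and 9.37 in NaHS cells and 9.69, 9.80 and 9.85 in untreated cells, with no overlap, a log2 fold change of -0.30 (SE 0.10, adjusted p = 0.163). For mug30, a predicted HECT ubiquitin ligase, the log2 fold change was 0.02 with an SE of 0.17.

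The 6 genes above background with the smallest differences were mug170, meu15, mug10, mug98, mug110 and mug174, whose log2 fold changes lay between -0.01 and 0.02. The closest estimates among them were those of mug170, with 9.35, 9.43 and 9.19 in NaHS cells and 9.23, 9.49 and 9.23 in untreated cells, and of mug110, with 8.37, 8.63 and 8.52 in NaHS cells and 8.35, 8.67 and 8.54 in untreated cells (SE 0.11 for each). For mug10 the SE was 0.34, and 0.08 with the block.

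Besides meu10, 10 genes were not above background in untreated cells, and none of them was above it in NaHS cells, so no fold is given for them. They were meu26, mug27, mug28, mug62, mug93, mug96, mug112, mug114, mug116 and mug137. The groups did not overlap in mug27, which encodes a protein kinase of forespore membrane formation and had 3.08, 2.43 and 2.55 in NaHS cells and 1.49, 0.78 and 2.21 in untreated cells, nor in mug114, with 3.64, 3.65 and 2.91 in NaHS cells and 2.24, 2.63 and 2.77 in untreated cells. Both were below the limit in each group all the same.

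Several of the others at background varied widely within a group. The gene mug28, for an RNA-binding protein of spore wall formation, read 4.71, 3.54 and 0.91 in NaHS cells and 4.37, 3.13 and 3.50 in untreated cells. For mug62 the values were 3.43, 3.13 and 4.03 in NaHS cells and 2.81, 3.43 and 1.47 in untreated cells, for mug96 they were 2.61, 1.76 and 0.04 in NaHS cells and 2.10, 1.88 and 2.01 in untreated cells, and for mug116 they were 0.13, 2.29 and blank in NaHS cells and 3.20, 0.42 and 2.07 in untreated cells. Differences of several units within a group show how little a value near background carries. For meu26, mug112 and mug137 the 6 values lay between 2.27 and 3.91.

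Another pattern of the set ran across both groups and not between them. In 6 of the 109 genes (5.5%) replicate 1 was more than 1 higher on the log2 scale than each of the other arrays of its group, in NaHS and in untreated cells alike, against 108 of all tested probe sets (2.18%), and in 0 genes it was lower by as much. The genes were mug16, mug57, mug72, mug147, mug163 and mug166, and they were chosen after their values were seen. The clearest case was mug72, with 7.10, 4.33 and 4.84 in NaHS cells and 6.87, 4.22 and 4.47 in untreated cells. Its replicate 1 lay over 2 above the others in each group, while NaHS and untreated cells of the same number were within 0.37. For mug163 the arrays read 6.15, 3.80 and 4.19 in NaHS cells and 5.84, 3.55 and 4.39 in untreated cells, and for mug166 they read 6.89, 5.20 and 4.84 in NaHS cells and 7.23, 4.95 and 5.28 in untreated cells.

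These genes had wide errors in the comparison of the groups. The SE of the log2 fold change was 0.98 for mug72, 0.81 for mug163 and 0.78 for mug166, against the median of 0.17 for uncalled genes, and with the block mug72 was called higher (adjusted p = 0.0493) and mug57 lower (0.0246). In these genes replicate 1 of both groups thus stood apart from replicates 2 and 3. Without replicate 1 of both groups 10 of the 109 genes rose (6.97% of all tested probe sets did) and 6 fell (7.33% of all tested probe sets did). Of the 11 genes called on all arrays, meu10 and mug177 then missed the threshold (adjusted p = 0.0651 and 0.0807) and the other 9 remained. The added genes were meu18, meu22, meu27, mug68 and mug133 on the higher side and mug58 and mug153 on the lower side. On all arrays the log2 fold change of meu27 was 0.05 (adjusted p = 0.98, and 0.931 with the block).

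**Figure D4:**
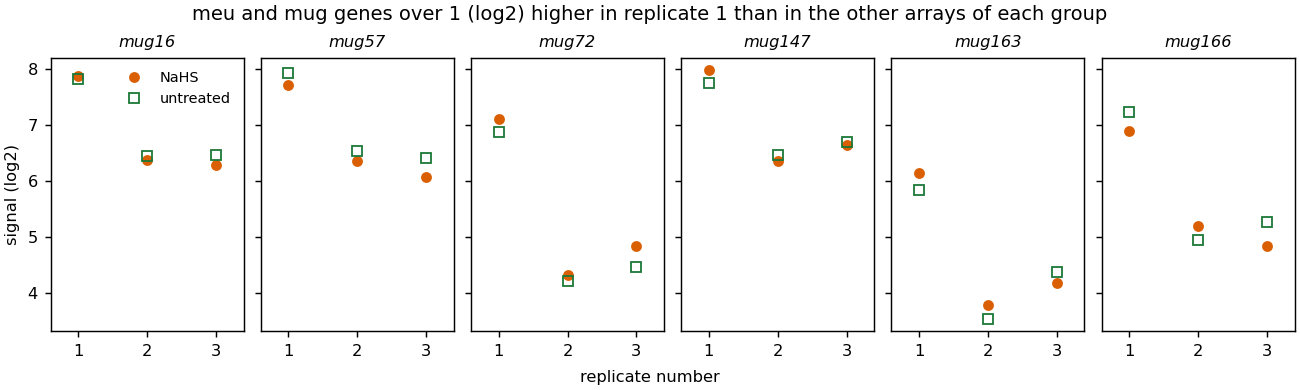
Log2 signal (vertical axis) of mug16, mug57, mug72, mug147, mug163 and mug166 by replicate number (horizontal axis) in NaHS cells (filled circles) and untreated cells (open squares). In each gene and each group the value of replicate 1 lies more than 1 above those of replicates 2 and 3, and NaHS and untreated values of the same number lie close together.

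Genes next to the called ones were looked up by gene order in RefSeq. The 11 called genes have 22 neighbours, 14 of which have a probe set of their own, and 3 of these 14 were called, beside 7.63% of all tested probe sets. Beside mug146, which rose, lies the hexose transporter gene ght6, which has the older name meu12. It had 4.84, 4.71 and 4.38 in NaHS cells and 3.62, 3.67 and 3.60 in untreated cells (measured log2 fold change 1.01, SE 0.13, adjusted p = 0.00946). Its untreated mean was not above background, so the rise is given as at least 1.82-fold. Beside mug14 lies abc3, which encodes an ABC transporter and rose with a log2 fold change of 0.54 (SE 0.09, adjusted p = 0.0263). Beside mug177 lies erg25, an enzyme gene of ergosterol synthesis, which fell with a log2 fold change of -0.35 (SE 0.07, adjusted p = 0.032).

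Some called genes overlap a neighbour in the annotation. The gene mug177 overlaps mug58, which is also in the set and had 9.64, 9.41 and 9.32 in NaHS cells and 9.93, 9.76 and 9.68 in untreated cells (log2 fold change -0.34, adjusted p = 0.16). The gene mug150 overlaps kap113, whose log2 fold change was 0.13 with an SE of 0.25. In mug146 the overlapping gene is mpc1 and in mug5 it is agn1, and neither has a probe set of its own here. Whether the probes of one gene of such a pair also bound RNA of the other was not tested.

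Other genes linked to the meiotic programme, taken from a list of 62 genes by function that leaves out all meu and mug symbols, changed at a rate close to that of all probe sets. Of these, 59 were measured (16 of them with an older meu or mug name), 3 rose and 2 fell (8.47%), beside 7.63% of all tested probe sets, and their median log2 fold change was 0.00. In untreated cells 9 of the 59 (15.3%) were not above background, while others were bright, such as spo20 and ags1 (mean log2 signals 11.45 and 10.98). The list also holds mmi1, whose protein acts against meiotic transcripts in growing cells, so it is not limited to genes that rise in meiosis. Among 14 genes for entry into sexual differentiation and meiosis 1 rose, among 29 genes for recombination, pairing and cohesion 1 rose and 1 fell, and among 16 genes for the forespore membrane and spore wall 1 rose and 1 fell. With the block 6 rose and 9 fell.

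The clearest of these changes was in mei2, with 7.05, 7.16 and 7.17 in NaHS cells and 6.49, 6.59 and 6.47 in untreated cells (log2 fold change 0.61, SE 0.07, adjusted p = 0.00849), and it was lost without untreated replicate 3 alone (0.0622). The recombinase gene dmc1 rose with a log2 fold change of 0.58 (SE 0.11, adjusted p = 0.0351), and bqt1, whose protein connects telomeres to the spindle pole body and which has the older name mug23, fell with a log2 fold change of -0.60 (SE 0.11, adjusted p = 0.028). Both were kept in 1 of the 6 fits without 1 array, that without untreated replicate 1. Around the forespore membrane, spo14 rose (log2 fold change 0.36, adjusted p = 0.0328), while spo6, which encodes the regulatory subunit of the Spo4 kinase, fell (log2 fold change -0.44, adjusted p = 0.0489), and both missed the threshold in each fit without 1 array. For ste11, the transcription factor at the head of the programme, the log2 fold change was -0.11 with an SE of 0.12.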

How the data were processed

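Cultures of wild-type *S. pombe* (3 treated with NaHS and 3 untreated) were hybridised to 1 Affymetrix Yeast Genome 2.0 array each. The deposited files hold log2 signals, 1 per probe set, computed with MAS5 by the service that the authors commissioned. Neither the MAS5 version nor its scaling target is given in the sources used here. Such scaling sets the arrays to a common level, so changes are relative to it. Of 10928 probe sets 213 are controls, and 2937 are paired with *S. pombe* genes, 2917 of them with 1 gene. The tests covered 4965 probe sets, these 2937 and 2028 that the annotation does not list but whose mean exceeded the *S. cerevisiae* background limit of 3.67. Blank cells (23.6% of all, 2 of them in meu and mug genes) were set to 0. Symbols were updated by Entrez ID through RefSeq (2914 matched, 113 symbols changed), whose assembly ASM294v3 served for names and gene order only.

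The comparison used limma 3.58.1 under R 4.3.3 (two-sided, 4 residual and 2.02 prior degrees of freedom) with the Benjamini-Hochberg adjustment over all tested probe sets. Alternatives were the replicate number as a block, quantile normalization, blanks left missing, SAM (programmed for this work, unpaired, 20 arrangements, constant 0.426, false discovery rate 0.0459), other sets of tested probe sets or members, and leaving out each array; leaving out replicate 1 of both groups was added after the data were seen. The replicate numbers may pair cultures: deviations from the group means correlated at 0.867, 0.578 and 0.598 between arrays numbered 1, 2 and 3, but also at 0.592 and 0.637 between numbers 2 and 3. In simulated data with 4965 probe sets and 200 changed, limma recovered 59.4% of 1.5-fold, 78.1% of 2-fold and 93.1% of 4-fold changes, and 5.59% of its calls were false. The changed probe sets were drawn from all those tested and the noise was independent between arrays. These shares therefore do not describe the meu and mug genes as such. Python 3.11.15 and matplotlib 3.10.9 served for tables and figures. The number of arrays limits the precision. The study describes 3 biological repeats, and whether treated and untreated cultures of the same number shared an origin is not stated.

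The set of genes was picked for description, and the lists and tests chosen, with earlier results of these data known. Marker genes of the mating types were placed by their known role, which exchanged map3 and mam2 between the h+ and h- lists after their values were seen. In the list of meiotic genes hrs1 was read as its present symbol mcp6, and sma1, which matched only a kinetochore gene, was left out, both after their values were seen. Named genes were every called meu or mug gene, meu10, meu22, meu31, mug2, mug5 and mug146, the largest uncalled differences with and without overlap, all genes at background, the 6 smallest differences and the called genes of the list of meiotic genes. Genes described by role, by replicate 1, by neighbourhood or only with the block were chosen after their values were seen. Roles are textbook knowledge or the study's gene descriptions. Promoter and protein sequences were not analysed here.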

Additional observations from a re-analysis of the deposited data

How the results depend on the processing

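The median log2 fold change of the meu and mug genes and the number above background in untreated cells moved by less than the replicate spread or by less than 1.5 times under every alternative run for them. The count of genes that rose was 6. It was 17 with the replicate block, 10 without replicate 1 of both groups (a choice made after seeing the data), and 4 to 5 in the fits without 1 array. The count that fell was 5. It was 15 with the block, 3 when only probe sets paired with *S. pombe* genes were tested, 2 with quantile normalization and 1 with SAM, and it was 0 to 2 in the fits without 1 array, being 0 by limma without untreated replicate 2 or untreated replicate 3, where 7 and 9 had an unadjusted p below 0.05. SAM called 7 of the 109 genes, mug27, meu10, mug14, mug35, mug135 and mug146 as higher and mug2 as lower. Its constant of 0.426 lowers the statistic of small, even changes.

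Over all tested probe sets 379 were called. This was 1622 with the block, 169 when only paired probe sets were tested, 149 with SAM, 95 to 224 without 1 array and 710 without replicate 1 of both groups. In the list of other meiotic genes 3 rose, which became 6 with the block, 1 with SAM and 0 to 2 without 1 array, and 2 fell, which became 9 with the block, 1 when only paired probe sets were tested, 0 with quantile normalization (4 at an unadjusted limma p below 0.05), 0 with SAM and 0 to 1 without 1 array (4 or 5 at an unadjusted p below 0.05 where it was 0). Without replicate 1 of both groups these were 4 and 1. The cause of these differences was not tested. By the array's older symbols 133 genes carried a meu or mug name, of which 6 rose and 6 fell. No called meu or mug gene turned its direction. The median log2 fold change, 0.011, was -0.025 with quantile normalization, -0.03 without replicate 1 of both groups and -0.029 to 0.072 without 1 array, negative in 4 of those 6 fits, beside a spread of 0.065 over the replicates.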

Other observations

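Some genes first named meu or mug have since been given another symbol and are not among the 109. RefSeq lists such an older name for 91 other genes with a probe set of their own here, and 3 of them rose and 2 fell by limma's adjusted p (5.49% called, beside 7.63% of all tested probe sets). The gene ubx3 (older name mug39), which encodes a UBX domain protein, had 11.44, 11.39 and 11.36 in NaHS cells and 10.56, 10.36 and 10.49 in untreated cells, a log2 fold change of 0.93 (standard error, SE, 0.08, adjusted p = 0.0029). The hexose transporter gene ght6 and the telomere gene bqt1 are described above. The gene mmc1 (older name mug99) had 8.13, 8.29 and 8.12 in NaHS cells and 8.66, 8.55 and 8.66 in untreated cells, a log2 fold change of -0.44 (SE 0.08, adjusted p = 0.0288). For wtf3 (older name meu9), of the multicopy wtf family whose members share sequence, the values were 3.08, 3.18 and 2.30 in NaHS cells and 0.23, 1.25 and 1.02 in untreated cells (adjusted p = 0.0235). Both groups of wtf3 were at background, so no fold is given. The largest uncalled change among the renamed genes was in nep2 (older name mug120). It had 9.08, 7.88 and 7.95 in NaHS cells and 7.40, 5.90 and 5.97 in untreated cells, without overlap. The log2 fold change was 1.88 (SE 0.51, adjusted p = 0.0902 by limma), and with the replicate block the adjusted p was 0.00102.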
